A study of Canis lupus familiaris with 5 samples.

Results

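KCNIP2, GJA1 and ATP1B1 encode 3 membrane proteins that shape the electrical activity of heart muscle. They were taken as every probe set whose only gene symbol in the platform annotation was KCNIP2, GJA1 or ATP1B1, and each gene had 1 such probe set, so the 3 genes are 3 of the 2416 genes named on the array. The genes were selected on their measured intensities in failing against control myocardium, that is, with this contrast on these 5 arrays already known. Their intensities are therefore given as a description, without a test.

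The samples were canine myocardium from control dogs (the control group) and from dogs with congestive heart failure (the failing group), and total RNA from each sample was read on its own oligonucleotide array. The control arrays were 1a and 2a (n = 2), and the failing arrays 1a, 1b and 2a (n = 3). Each array carried a pool of RNA from 3 dogs, except control 1a, for which the labels describe no RNA source. The breed, age, region of the heart and cause of heart failure were not given in the sources used here, nor whether failing 1a and 1b came from different pools or from 1 pool read again. The spread between arrays may thus be technical. The 5 arrays limit the precision of every value. The probe sets were paired with human genes and the RNA came from dog, and how well each probe set matches its dog transcript was not tested.

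KCNIP2 encodes KChIP2, a calcium-binding protein that joins the pore-forming Kv4 channel subunits, speeds their delivery to the membrane and sets the gating of the transient outward potassium current. That current produces the early notch of the action potential and is a well-known feature of the outer layers of the dog ventricle. GJA1 encodes connexin 43, the main gap junction protein of working ventricular muscle, which lets current pass from cell to cell at the intercalated disc. ATP1B1 encodes the beta 1 subunit of the sodium pump, which the catalytic alpha subunit needs to fold and to reach the membrane, and the pump restores the sodium and potassium gradients after each beat.

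The values were linear intensities on a common scale, on which the mean of every array, after the lowest and highest 2% of probe sets were set aside, was 800. Between 34.8% and 40.1% of the 4601 probe sets that were not array controls lay below 0 on an array, the highest share on failing 2a. The median intensity lay between 190.4 and 202.0 on the other 4 arrays and was 265.7 on failing 2a. For GAPDH, the 3′ control probe set divided by the 5′ one gave 2.15 and 2.32 on the control arrays and from 1.32 to 1.44 on the failing arrays. This ratio moves with the group, and its part in the differences below was not tested.

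KCNIP2 was weakly above 0 in control myocardium and below 0 in failing myocardium. Its probe set, HSPD10428_at, had intensities of 244.5 on control 1a and 267.0 on control 2a. On failing 1a, 1b and 2a the intensities were −160.0, −144.6 and −682.3. All 3 failing values lay below both control values, and the control pair was close together while failing 2a lay far below the other failing arrays.

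The mean was 256 ± 15.9 (SD, n = 2) in control and −329 ± 306 (SD, n = 3) in failing myocardium, a difference in intensity of −585. It was −408 without failing 2a, and between −677 and −573 when any other array was left out. Values below 0 have no logarithm, so no fold is given. With intensities raised to a floor of 20 the log2 difference was −3.68, a size that is set by the floor, since all failing values lay under it.

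Both control values of KCNIP2 were themselves near the middle of the array. They stood at or above 52.9% and 54.9% of the probe sets, and the failing values at or above 23.5%, 25.9% and 19.5%. A middle position on these arrays is a dim one, given the share of probe sets below 0. With a mean log2 intensity of 5.79 over the arrays, KCNIP2 did not reach the brightness asked of tested genes, which was the median of 7.13 (an intensity of 140.1).

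Of all 4601 probe sets, 61 (1.33%) were above 0 on both control arrays and below 0 on all failing arrays, as KCNIP2 was. The opposite pattern, below 0 on both control and above 0 on all failing arrays, was met by 46 (1%). Ranked by the lower of its control values, KCNIP2 was number 18 of the 61, whose median lower control value was 118. Probe sets whose failing values all lay below control, at any sign, made up 13.4% of the table, and 13.1% had all failing values above control. Since the gene was chosen with this contrast known, nothing is read from its place in these counts. No multiplication of an array by a constant changes the sign of a value, so the change of sign in KCNIP2 does not depend on such scaling.

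**Figure D1:**
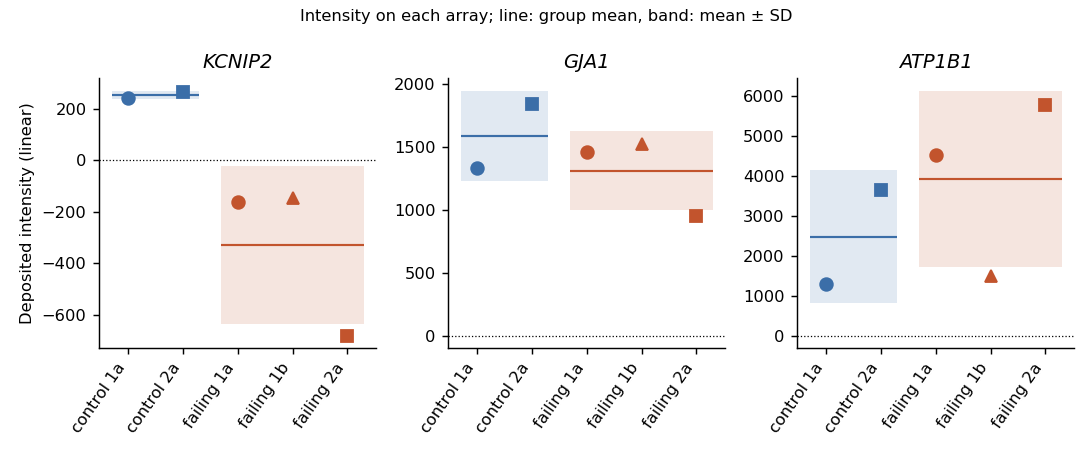
Deposited intensity (linear, y axis) of KCNIP2, GJA1 and ATP1B1 on each of the 5 arrays (x axis), with circles, squares and triangles for arrays 1a, 2a and 1b, lines for the group means and bands for the mean ± SD (n = 2 control, n = 3 failing). KCNIP2 lies above 0 on both control arrays and below 0 on all failing arrays, while the groups overlap for GJA1 and ATP1B1.

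GJA1 was clearly above 0 on every array and differed little between the groups. Its probe set, 32531_at, had intensities of 1336 on control 1a and 1844 on control 2a. On failing 1a, 1b and 2a it had 1462, 1524 and 951. The values of failing 1a and 1b fell between the 2 control values and only failing 2a lay below them, so the groups overlapped.

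The mean of GJA1 was 1590 ± 359 (SD, n = 2) in control and 1312 ± 314 (SD, n = 3) in failing myocardium. The log2 difference was −0.29, or 0.819-fold as a ratio of geometric means, against a pooled SD within groups of 0.36. The difference was thus smaller than the spread between arrays of the same group. Leaving out failing 2a gave −0.07 and leaving out control 2a gave −0.06. With control 1a left out it was −0.52, and the remaining groups no longer overlapped.

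Arrays that share a number in their titles gave GJA1 opposite directions. The mean log2 value of failing 1a and 1b was 0.16 above control 1a, whereas failing 2a was 0.95 below control 2a. The labels do not say that the number marks a shared batch or day. Connexin 43 transcript was bright for this array, at or above 79.0% and 83.6% of probe sets in control and between 68.6% and 80.1% in failing myocardium.

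ATP1B1 had a higher mean in failing myocardium, with wide differences inside both groups. Its probe set is 37669_s_at, and the suffix _s marks probes that can match several transcripts. The intensities were 1296 on control 1a and 3654 on control 2a. On failing 1a, 1b and 2a they were 4512, 1497 and 5787. Control 1a and failing 1b were the low arrays, the others were high, and each group held at least 1 of each kind.

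The mean of ATP1B1 was 2475 ± 1667 (SD, n = 2) in control and 3932 ± 2203 (SD, n = 3) in failing myocardium. The log2 difference of 0.64 (1.56-fold as a ratio of geometric means) was below the pooled SD within groups of 1.04. Leaving out control 1a turned it to −0.11, and leaving out control 2a raised it to 1.39. Without failing 1b it was 1.23. The groups stopped overlapping when control 2a or failing 1b was left out, with failing above control in both cases. Within the title numbers, failing lay above control by 1.004 (number 1) and 0.66 (number 2) on the log2 scale.

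Arrays of the same group differed by different amounts in ATP1B1 and GJA1, depending on the pair. For ATP1B1, control 1a and 2a differed by 2.82-fold, a log2 difference larger than in 85.4% of the 1449 tested genes. Failing 1a and 1b, the pair of arrays most alike in their names, differed by 3.01-fold in ATP1B1, more than in 89.9% of tested genes. For GJA1 the same pairs differed by 1.38-fold and 1.04-fold, more than in 54.9% and 13.8% of tested genes. The median absolute log2 difference of the tested genes was 0.41 between the control arrays and 0.31 between failing 1a and 1b. Between failing 1a and 2a the order was the reverse, with 1.28-fold in ATP1B1 and 1.54-fold in GJA1, more than in 25.5% and 39.8% of tested genes. Between failing 1b and 2a ATP1B1 differed by 3.86-fold and GJA1 by 1.60-fold, more than in 79.8% and 44.5%. Over both groups, the pooled SD within groups was larger than in 73.6% of tested genes for ATP1B1 and than in 30.6% for GJA1.

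**Figure D2:**
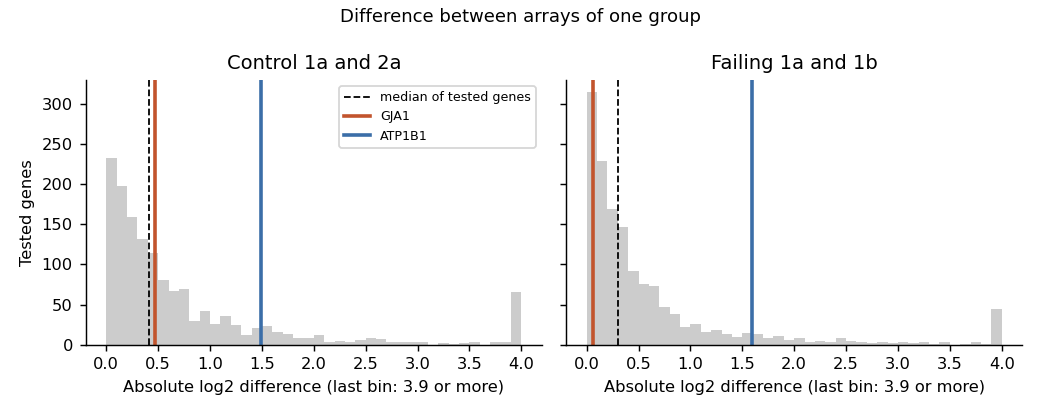
Histograms of the absolute log2 difference between control 1a and 2a (left) and between failing 1a and 1b (right) over the 1449 tested genes (y axis, number of genes), with the median dashed and GJA1 and ATP1B1 as coloured lines. ATP1B1 lies in the right tail of both panels, at 1.495 and 1.59, while GJA1 lies at 0.46 and 0.06.

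Differences past the threshold were rare in the table as a whole. Of 1449 tested genes, 1 (0.069%) was higher and 0 (0%) were lower after Benjamini-Hochberg adjustment in limma. At an unadjusted p under 0.05 there were 152 (10.5%), of which 100 (6.9%) were higher and 52 (3.59%) lower. Leaving out failing 2a gave 13 called genes, leaving out control 2a gave 3, and either of the other failing arrays gave 0. The groups did not overlap in 31.3% of tested genes, with failing wholly above control in 19.5% and wholly below in 11.8%. Of the 2 tested genes GJA1 and ATP1B1, 0 had groups that did not overlap. The median log2 difference over all tested genes was 0.15 on the deposited scale. It was 0.05 without the filter on dim probe sets and 0.10 without failing 2a, and the source of this shift was not tested. With each array divided by its 75th percentile that median was −0.05, GJA1 had −0.49 and ATP1B1 0.44, and 190 genes lay wholly above control and 241 wholly below, in place of 283 and 171. At an unadjusted p under 0.05 that scaling gave 60 higher and 72 lower. After quantile normalization 212 genes lay wholly above control and 209 wholly below.

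**Figure D3:**
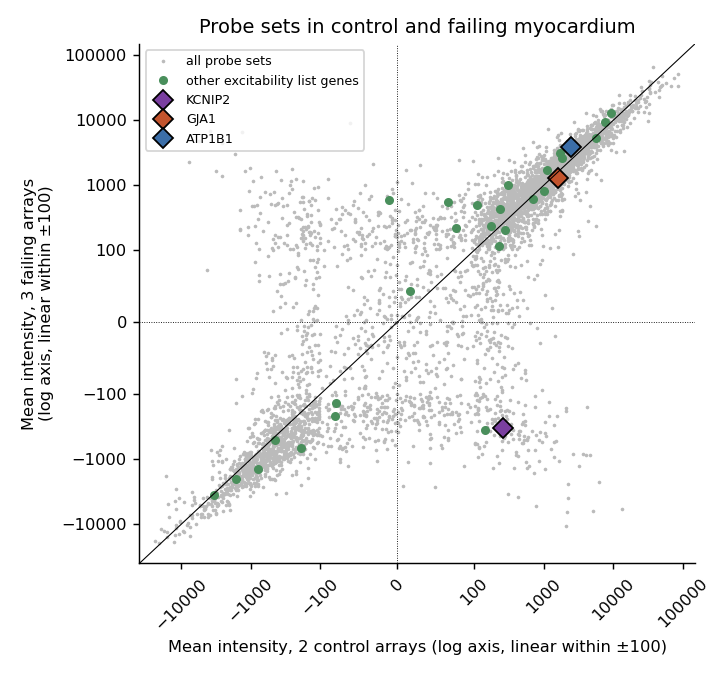
Mean intensity of each of the 4601 probe sets on the 2 control arrays (x axis) and the 3 failing arrays (y axis), on log axes that are linear within ±100, with equality as a diagonal line. GJA1 and ATP1B1 lie near the diagonal among the bright probe sets, and KCNIP2 lies to the lower right, above 0 in control and below 0 in failing myocardium.

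The other genes of cardiac excitability were taken from 5 lists of 107 genes, of which 17 besides KCNIP2, GJA1 and ATP1B1 were on the array and 10 were bright enough to be tested. None of the 10 passed the adjusted threshold in limma in either direction (smallest adjusted p = 0.427), and 1 had an unadjusted p under 0.05. The failing values lay wholly above control in 4 of them and wholly below in 0, against 19.5% and 11.8% of all tested genes. Of those 4, JUP and CACNA2D1 had control means under the brightness asked of tested genes (log2 5.86 and 5.59 against 7.13) and were tested only through their failing values, so the filter favoured their direction. Neither was bright enough to be tested without failing 2a. The other 2, CTNNB1 and CAV3, overlapped with 75th percentile scaling. Without failing 2a 2 genes lay wholly above control, and without control 2a 7. The median log2 difference of the 10 was 0.50, beside 0.15 over all tested genes, and nothing is read from these counts, since dim genes such as KCNIP2 and ATP1B3 did not enter them.

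KCNIP2 was the sole gene on the array from the list of transient outward and delayed rectifier potassium channels. The Kv4 pore genes KCND2 and KCND3, whose products KChIP2 binds, were not analysed here. Other potassium channels were represented by KCNMA1 and KCNJ12. KCNMA1, the calcium-activated BK channel, had a log2 difference of −0.20 ± 0.47 (SE, limma adjusted p = 0.903) with overlapping groups at both of its probe sets. KCNJ12, an inward rectifier subunit, read between −1625 and 141 and was not tested.

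In the sodium and calcium channel list 3 of the 4 genes on the array were tested, with 0 passing. CACNA1C, the pore of the L-type calcium channel, had intensities of 1198 and 840 in control and 627, 1059 and 756 in failing myocardium, and the groups overlapped. CACNB1, a beta subunit of such channels, had a log2 difference of 0.52 ± 0.55 (SE). CACNA2D1, the alpha 2 delta subunit, lay above both control values on every failing array (136, 163 and 1453 against −137 and 116), but failing 1a and 1b stood close to control 2a and its adjusted p was 0.620 in limma. SCN4A, a muscle sodium channel, was below 0 on all 5 arrays.

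The gap junction and intercalated disc list held 8 genes beside GJA1, and 5 were tested. No other connexin was analysed here. All 5 had a log2 difference above 0, as did 59.6% of all tested genes, and 3 of them (CTNNB1, CAV3 and JUP) had failing values wholly above control, as did 19.5% of all tested genes. CTNNB1 encodes beta-catenin, which links cadherins of the disc to the cytoskeleton. Its intensities were 8834 and 9770 in control and 13403, 13162 and 12368 in failing myocardium, a log2 difference of 0.48 ± 0.16 (SE, limma adjusted p = 0.427). The second probe set of CTNNB1 had 1797 and 1645 in control and 2573, 1792 and 4907 in failing myocardium, with overlapping groups.

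CAV3, the muscle caveolin, had 1915 and 1786 in control and 2618, 2864 and 2278 in failing myocardium (log2 difference 0.48 ± 0.25 SE, limma adjusted p = 0.565), and its other 2 probe sets, which were dimmer, overlapped. JUP, plakoglobin of the desmosome and adherens junction, had −36.2 and 169 in control and 194, 592 and 848 in failing myocardium, and its adjusted p was 0.525 in limma. ANK3, the ankyrin that anchors sodium channels, and CTNND1, the catenin p120, had log2 differences of 0.79 ± 0.84 and 1.22 ± 1.23 (SE) at their tested probe sets, with overlapping groups. The other, dimmer ANK3 probe set read 178 and 39.2 in control and 254, 421 and 819 in failing myocardium, which did not overlap. The direction of all 5 was the same with 75th percentile scaling and with quantile normalization, but with 75th percentile scaling the groups of CTNNB1 and CAV3 overlapped. CTNNA1 (alpha-catenin) and VCL (vinculin) were below 0 on all arrays, DSC2 (desmocollin 2) read between −144 and 208, and none of these was tested.

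In the sodium pump list, the alpha subunits were not analysed here, and ATP1B3 was the other beta subunit on the array. One ATP1B3 probe set read 244 and 39.5 in control and −40.6, −198 and −839 in failing myocardium, so it too was above 0 on both control and below 0 on all failing arrays. The other ATP1B3 probe set read 15.7 and 136 in control and −180, 84.2 and 750 in failing myocardium, and the groups overlapped. ATP1B3 was too dim to be tested, and its probe sets did not agree. FXYD1, phospholemman, the regulator of the cardiac pump, was bright, with 6403 and 8915 in control and 8159, 8693 and 11691 in failing myocardium. Its log2 difference was 0.31 ± 0.26 (SE, limma adjusted p = 0.741), and its second probe set likewise overlapped between the groups. FXYD2, the pump's gamma subunit, was below 0 on all arrays.

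**Figure D4:**
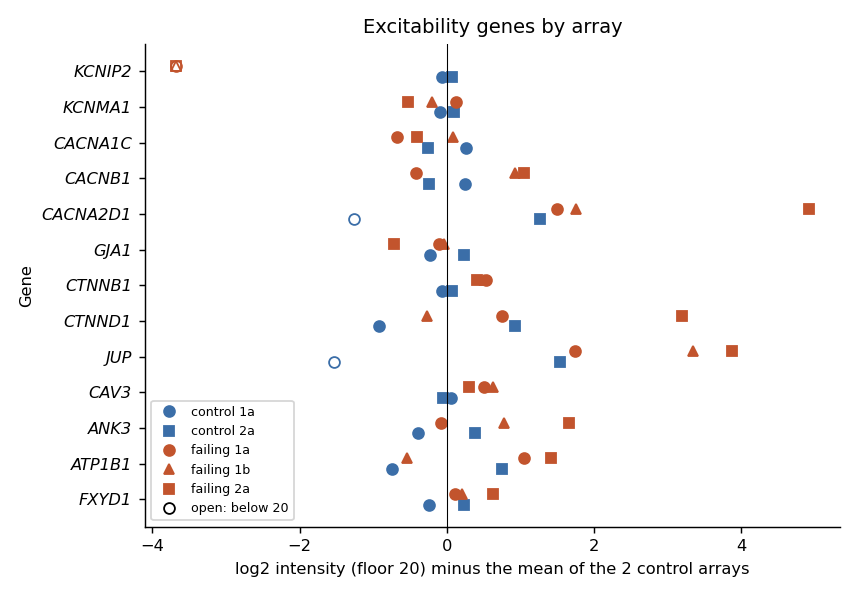
Log2 intensity after a floor of 20, minus the mean of the 2 control arrays (x axis), for KCNIP2, GJA1, ATP1B1 and the 10 other tested excitability genes (y axis), with blue for control and red for failing arrays, shapes for the array names as in the key and open symbols for values below 20. CTNNB1, CAV3, JUP and CACNA2D1 have all failing values to the right of control on the deposited scale, though CTNNB1 and CAV3 overlap with 75th percentile scaling, and KCNIP2 has all failing values at the floor.

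The tested genes most like GJA1 over the 5 arrays were PPP2R1A, FIS1 and PSMB2. Likeness was the root mean square difference between log2 profiles, each centred on its own mean, and it was 0.077, 0.080 and 0.081 for these genes against a median of 0.72 over the other 1448. PPP2R1A encodes a scaffold subunit of protein phosphatase 2A, FIS1 a mitochondrial fission protein and PSMB2 a proteasome subunit. In each of them control 2a was the highest array and failing 2a the lowest, as in GJA1, which follows from picking them for their likeness to it. None of these stayed among the nearest genes when control 1a, control 2a or failing 2a was left out.

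The genes most like ATP1B1 were ZFP36L2, an RNA-binding protein that promotes decay of mRNA, MID1IP1 and the atypical cadherin gene FAT1. Their root mean square differences were 0.14, 0.22 and 0.27, against a median of 0.98. ZFP36L2 had 640 and 1920 in control and 2354, 983 and 3286 in failing myocardium, so control 1a and failing 1b were again the lowest arrays. These genes were picked for that likeness, so the shared low arrays follow from the choice. When control 1a was left out 1 of them stayed among the nearest genes, and 2 did when any other array was left out.

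**Figure D5:**
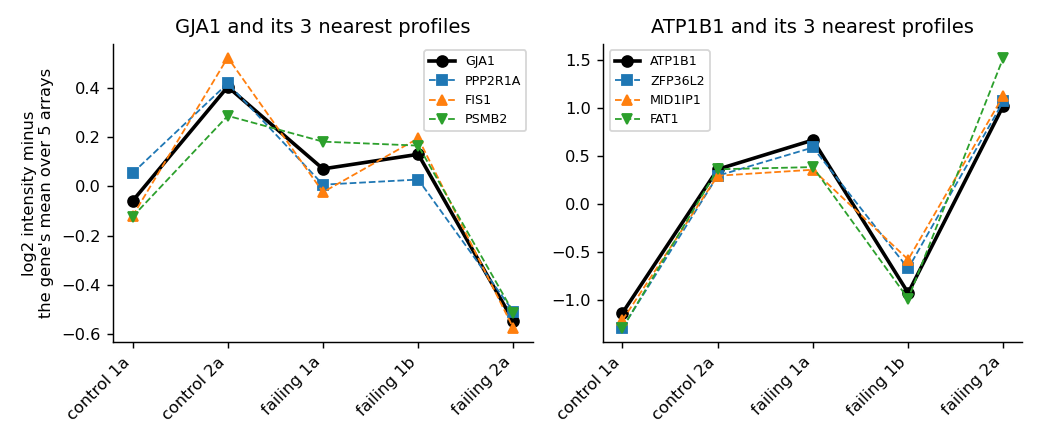
Log2 intensity minus the gene's mean over the 5 arrays (y axis) by array (x axis), for GJA1 (left) and ATP1B1 (right) as black lines and their 3 nearest genes as dashed lines that only guide the eye. GJA1 and its neighbours are highest on control 2a and lowest on failing 2a, and ATP1B1 and its neighbours are low on control 1a and failing 1b.

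Some sums of cell type markers differed between the groups and others overlapped, and no tested marker passed the adjusted threshold in limma. Fewer cells of a type and less RNA per cell cannot be told apart in such samples. Of 16 heart muscle markers 11 were on the array. The sum of their intensities was 173597 and 180314 in control and lay between 142337 and 160664 in failing myocardium, below both control arrays. The sum is carried by a few bright genes. MYH6, the alpha myosin heavy chain, lay below control on all failing arrays, and TNNC1, troponin C, had a log2 difference of 0.02 ± 0.15 (SE). In the other direction, ACTN2, alpha-actinin 2 of the Z-disc, read 3080 and 2321 in control and 10208, 11359 and 7175 in failing myocardium, and RYR2, the calcium release channel, also lay wholly above control at its tested probe set. Of the 10 tested markers, 4 had failing values wholly below control and 2 wholly above, beside 11.8% and 19.5% of all tested genes, and 0 passed in limma after adjustment (5 at an unadjusted p under 0.05). TTN (titin) was among those 4, but its other probe sets overlapped or, at a dim one, lay wholly above control. CKM overlapped at its tested probe set and lay wholly below control at the other. KCNIP2 and GJA1 are heart muscle genes in the ventricle, and the part of this sum in their values was not tested.

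Connexin 43 and the pump subunits are also made by cells of vessels and connective tissue. Each sum used the probe set of highest mean log2 intensity of each gene. The 9 endothelial markers on the array (of 11) summed to 5704 and 6926 in control and 7918 to 16536 in failing myocardium. PECAM1 was not above 0 on every array. Of the 8 tested, 4 lay wholly above control and 0 wholly below, beside 19.5% and 11.8% of all tested genes. Of those 4, CDH5 read 34.5 and 138 in control, both under the intensity of 140.1 asked of tested genes. It was tested only through its failing values, so the filter favoured its direction. TIE1 stood close to control on failing 1a, with 682 against 643 on control 1a. Whether the 4 stay apart from control under other scalings was not tested. The ENG probe set left out of the sum lay wholly below control, with 5158 and 8319 in control and 1598, 1488 and 523 in failing myocardium. The 8 fibroblast markers (of 10) summed to 6628 and 7797 in control and 8884 to 12246 in failing myocardium, all above 0 at the probe sets used. All 8 were tested, and 2 (COL1A2 and COL3A1) lay wholly above control and 0 wholly below, beside 19.5% and 11.8% of all tested genes. The groups overlapped in the others. The other COL1A1 probe sets were below 0 on every array, except for a value of 220 on control 1a. The 7 smooth muscle and pericyte markers (of 10) summed to 30842 and 54411 in control and 61209 to 85618 in failing myocardium, mostly from DES, which heart muscle also makes, and 3 of the 7 were not above 0 on every array. Without DES, a choice made after seeing the data, the other 6 summed to 5692 and 4968 in control and 5177, 4386 and 4841 in failing myocardium and overlapped. Among them TAGLN (transgelin) and CNN1 (calponin 1), the latter below 0 on all arrays, lay wholly below control. LMOD1 lay wholly above control at its tested probe set, with 1824 and 1560 in control and 2781, 2439 and 5139 in failing myocardium. The other LMOD1 probe sets were below 0 on all arrays and overlapped between the groups. Of the 4 tested smooth muscle and pericyte markers, DES included, 2 lay wholly above control and 1 wholly below. The shares over all tested genes were 19.5% and 11.8%. With the probe sets used for the sums, the endothelial and fibroblast sums were higher on all failing arrays, and the smooth muscle sum only with DES. The endothelial sum was not taken with the other ENG probe set. The part of these cells in the values of GJA1 and ATP1B1 was not tested.

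For other cell types the sums overlapped between the groups or the markers were barely detected. The 4 leukocyte markers (of 10) summed to values from −1977 to −782 in control and −1025 to −616 in failing myocardium, and 3 of them were not above 0 on every array. The single nerve marker (of 7), NEFL, read between −595 and 42.4. The sums of red blood cell markers (2 of 5) and adipocyte markers (3 of 6) overlapped between the groups. They were 3301 to 5270 and 3107 to 5349 in control and 4424 to 5549 and 2649 to 7515 in failing myocardium. Single markers did not all overlap. At their tested probe sets HBB lay wholly above control, as did 19.5% of all tested genes, and PLIN1 wholly below, as did 11.8%.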

How the data were processed

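The deposited table held linear intensities, 1 per probe set and array. How they were scanned and normalized is not stated in the labels. They had equal trimmed means over the 5 arrays, so no scaling was added. Groups came from the sample titles. Of 4653 probe sets, 52 array controls were left out. Among the remaining 4601 a single gene symbol was given for 3724, several for 72 and no symbol for 805, and 0 columns belonged to other samples. Values under a floor of 20 were set to it before taking log2. Genes whose best probe set had a mean log2 intensity at or above 7.13 were tested in R 4.3.3 with limma 3.58.1 (intensity trend, two-sided, Benjamini-Hochberg over 1449 genes, threshold 0.05). The test was first run on simulated data with the same SD for every gene, independent arrays and no floor. Such data differ from these arrays, so that run does not show how the test behaves on them. Other floors, scalings, filters, a replicate block and leaving out each array were tried. KCNIP2, GJA1, ATP1B1 and the gene lists were chosen with earlier results of these data known. Named genes were those 3, other KCNIP, KCND, connexin and sodium pump subunit genes on the array, up to 3 other tested genes per excitability list with the smallest p, and the 3 nearest profiles of GJA1 and ATP1B1. Further genes of the same lists are given to account for all of their members on the array, and were added after their values were seen. Genome coordinates and sequences were not used here.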

Additional observations from a re-analysis of the deposited data

How the results depend on the processing

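Of the values of KCNIP2, GJA1 and ATP1B1, the size of the KCNIP2 difference depended most on the processing. Its log2 difference was −1.35 with a floor of 100 and −8.00 with a floor of 1, as the floor fixes the failing values, and −3.81 and −3.82 with 75th percentile scaling and quantile normalization. Leaving out each array gave −3.74 to −3.61. The log2 difference of GJA1 ranged from −0.52 to −0.06 and that of ATP1B1 from −0.11 to 1.39 when arrays were left out. Averaging all probe sets of a gene changed nothing, since each gene had 1. The count of genes called by limma over the whole table, reported as 1, was 0 with a floor of 1, 0 with failing 1a and 1b averaged (49 higher at an unadjusted p under 0.05), 2 with 75th percentile scaling, 2 with every probe set tested, 5 without the filter, and 0 to 13 when arrays were left out, the most without failing 2a. The 61 probe sets above 0 on control and below 0 on failing arrays became 92 with failing 1a and 1b averaged and 100 to 136 with an array left out, where fewer arrays have to meet the rule. Of the other excitability genes 0 were called by limma under every alternative, with 0 to 4 at an unadjusted p under 0.05. With the replicate block, the title number as a term, KCNIP2 had −3.67, GJA1 −0.32 and ATP1B1 0.86, 1 gene was called, and 152 genes were higher and 74 lower at an unadjusted p under 0.05. The labels do not say that the number pairs arrays, and the deviations of arrays with the same number had r = 0.012 across genes.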
